A study of Homo sapiens with 12 samples.

Results

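The clustered protocadherins of chromosome 5q31 are cell-surface adhesion proteins encoded by 3 neighbouring gene clusters, alpha, beta and gamma. They were followed here as every gene of the count tables on chromosome 5 with a fitting GENCODE 29 symbol. Such a symbol starts with PCDHA, PCDHB or PCDHG and a letter or digit. The rule itself uses no measured value, but the genes were chosen with earlier results of these data known. This rule gave 59 of the 58735 genes listed, 16 in the alpha, 19 in the beta and 24 in the gamma cluster, of which 53 are protein-coding genes and 6 are pseudogenes. On GRCh38 the alpha genes span chr5:140786136-141012347, the beta genes chr5:141051135-141249365 and the gamma genes chr5:141330571-141512981, all on the plus strand. RNA sequencing compared wild-type HAP1 cells, a near-haploid human line of chronic myelogenous leukemia origin, with HAP1 cells carrying a SETDB1 knockout. SETDB1 encodes an enzyme that methylates histone H3 at lysine 9. Both genotypes were grown in the same medium, and how the knockout was made, and whether it is a single clone, are not given in the sources used here. Each genotype had 3 libraries from a non-directional kit, which loses track of the RNA strand, and 3 from a directional kit, 12 libraries in all; the titles call them biological replicates.

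A clustered protocadherin of the alpha or gamma type is built from a variable exon of its own, with its own promoter, spliced to constant exons that all members of the cluster share. Beta genes have a single own exon and no constant part. Single neurons are known to express a small, partly random set of the alpha, beta and gamma genes, whereas the C-type genes at the cluster ends (PCDHAC1, PCDHAC2, PCDHGC3, PCDHGC4 and PCDHGC5) are used more regularly. Promoter choice is known to involve the looping proteins CTCF and cohesin together with DNA methylation, and neurons use the resulting cell-surface codes to tell their own branches from those of other cells.

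The promoters of these genes are known for a conserved sequence element with the core CGCT, which lies shortly before the start of most variable exons. The RefSeq promoter table of GRCh38.p14, which holds 250 bases before and 50 after each start, had 52 entries for 47 of the 59 members. The windows below are shown because they display that core in members whose transcripts changed much, little or not past the threshold. Each is 26 bases of the plus strand, written 5′ to 3′, with the core in capitals.
PCDHA1, chr5:140786090-140786115: gccacatgatgtCGCTgtacaccaca
PCDHA10, chr5:140855845-140855870: gccaccggatgtCGCTgtcgtccaca
PCDHB10, chr5:141192303-141192328: gccacacggtggCGCTgcaggctaaa
PCDHB12, chr5:141208647-141208672: gacgcgtggtggCGCTgcaggataat
PCDHB13, chr5:141213869-141213894: gacgcgtggtggCGCTgcaggataag
PCDHB15, chr5:141245318-141245343: aacgcatggtggCGCTgcaggctaag
PCDHGB1, chr5:141350029-141350054: acctctgggcgcCGCTgtcgaccaaa
PCDHGA4, chr5:141354964-141354989: gactctgggtgtCGCTgttcaccaat
PCDHGC3, chr5:141475884-141475909: gactctgtgtgcCGCTgtcggccaat

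The letters CGCT, on either strand, were present in 51 of the 52 member promoters (98.1%) and in 70.0% of all 35116 promoters of the table. Longer forms separated the clusters. TGTCGCT on the gene's strand was found in 10 of 13 alpha promoters (76.9%), 1 of 14 beta promoters (7.14%) and 3 of 25 gamma promoters (12%), against 0.977% of all promoters. GTGGCGCT on the gene's strand was found in 13 of 14 beta promoters (92.9%), in 0 of the alpha or gamma promoters, and in 0.638% of all promoters. CGNCGCT was found in 15 of 25 gamma promoters (60%), in 0 of the alpha and 1 of the beta promoters, and in 10.3% of all promoters. These 3 longer forms overlap the core and were chosen after the member promoters had been read. AGGNGGC, letters of the CTCF consensus, was found on either strand in 4 of the 52 promoters (7.69%) against 35.9% of all, and TATAAA in 6 (11.5%) against 11.5% of all. AGGNGGC is only a part of that consensus, and CTCF binding was not measured. In the PCDHB windows above, the bases that end in the first C of the core differ from AGGNGGC only at its first base. The count of exact matches therefore does not show how many CTCF sites these promoters hold. The median number of CG dinucleotides per promoter was 7 over the 47 members and 14 over all promoters.

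In the non-directional libraries most clustered protocadherin transcripts were more abundant in the SETDB1 knockout. The mean level was higher in the knockout than in the wild type for 53 of the 59 members, lower for 5 and 0 in both for 1, where over all 58735 genes it was higher for 14119 and lower for 14830. Of the 35 members with enough reads to be tested, 30 rose, 1 fell (PCDHAC2) and 4 did not pass an edgeR adjusted p of 0.05, beside 25.5% of all 13778 genes tested that rose and 25.9% that fell. The median log2 fold change (log2FC, knockout over wild type) of these 35 was 1.35, and it was -0.0012 over all genes tested. These counts describe the members that could be tested, of which 16 reached the read minimum in all 3 knockout but not in all 3 wild-type libraries. An increase of at least 2-fold that passed the test was seen in 20 of the 35, beside 3.61% of all genes tested, and the 3 knockout libraries lay entirely above the 3 wild-type libraries for 31, beside 28.1%. Among 6811 tested genes with a mean level no higher than that of the most abundant member, 27.3 counts per 1000000 gene counts (CPM), 22.0% rose and the median was -0.0079.

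Many members were close to silent in wild-type cells, so members differed in the libraries through which they passed the minimum, 1.02 CPM or about 10 reads in 3 libraries. The minimum was reached in all 3 wild-type libraries by 18 members, of which 14 rose, 1 fell and 3 did not pass the threshold, with a median log2FC of 0.66. Over all genes that reached it there, 24.5% rose. Another 16 members reached it in all 3 knockout libraries but not in all 3 wild-type libraries. All 16 rose, beside 317 of the 489 such genes over all genes. Their entry to the test leaned on high knockout reads, and members below the minimum in every wild-type library had to be higher there. Some of the 16, such as PCDHB16, did reach it in part of the wild-type libraries. PCDHGA9 reached it in libraries of both groups, 3 in all. The other 24 members never had more than 16 reads in any library. Of these, 21 had a higher mean level in the knockout, 2 a lower one (PCDHB19P and PCDHGC5) and 1 (PCDHA14, a pseudogene) had 0 reads. With no minimum applied, 36 of the 58 members with a read rose and 1 fell, beside 11.9% of all 28949 genes that rose under that setting.

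**Figure D1:**
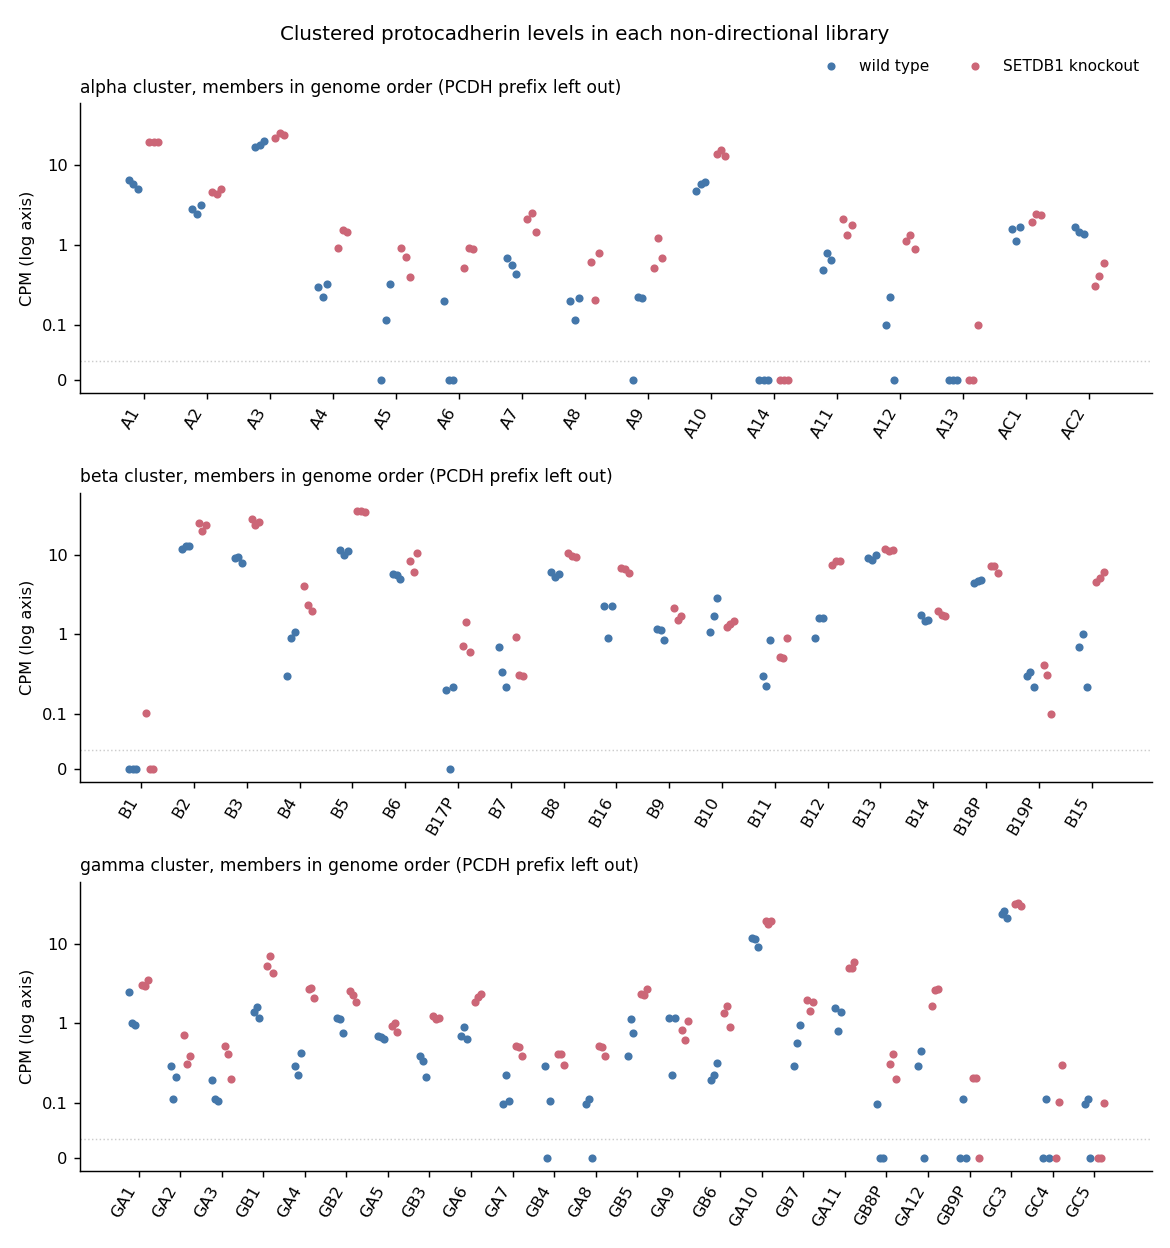
Level of each of the 59 members in the 6 non-directional libraries, in CPM on a log axis, with libraries at 0 drawn below the dotted line; 3 points per group are single libraries, wild type in blue and SETDB1 knockout in red. The knockout points lie above the wild-type points for most members, and PCDHAC2 at the end of the alpha panel shows the opposite order.

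SETDB1 itself (ENSG00000143379) had 651, 543 and 519 reads in wild-type and 118, 106 and 118 in knockout libraries, a log2FC of -2.39 (SE 0.079, edgeR adjusted p = 7.03e-43). Non-directional libraries held 8921959 to 10199215 gene counts, so 3 reads, taken as the smallest number to be read as present, equal 0.294 to 0.336 CPM. The 3 knockout libraries of this kit agree within sampling noise with each other (chi-square per degree of freedom 0.956 to 0.991, against 1.03 to 2.00 in the wild type), so adjusted p-values rest on a very small spread. Of the blood cell markers, SPI1 and MPO had 0 reads in all 6 libraries, while GATA2, RUNX1 and KIT were present. The summed level of 12 neuron markers, the cell type best known for these genes, was 27.1 to 29.8 CPM in wild type and 20.2 to 25.2 CPM in knockout libraries. Of 6 tested, GAP43 (5.98 to 7.96 CPM) and SYT1 (log2FC 0.52) rose and NEFL (5.39 to 0.101 CPM) and MAP2 (4.59 to 1.64 CPM) fell, while DCX, NEFM and STMN2 were at 0 in the knockout. Blood cell markers summed to 143 to 149 CPM in wild type and 118 to 122 CPM in knockout libraries, with TAL1 down from 16.1 to 3.23 CPM. The 9 markers of fibroblasts or epithelium summed to 221 to 239 and 243 to 254 CPM. Among them the epithelial EPCAM rose from 3.75 to 39.6 CPM, and the fibroblast genes PDGFRA and COL3A1 fell, the first from 59.3 to 19.5 CPM and the second with a log2FC of -3.07. Neither kind moved as a whole. The epithelial KRT8 rose (log2FC 0.47), while KRT18 and the fibroblast gene COL1A1 did not pass the threshold. Of those not tested, the epithelial CDH1 went from 1.10 to 0.406 CPM, and the fibroblast genes COL1A2 and PDGFRB were at 0 in the knockout. The part of these lists in the results was not tested.

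Reads over exons that several genes share are left uncounted by the counter, so the counts of alpha and gamma members come from their own exons and not from the constant exons. Unshared bases made up 36.9 to 78.7% of the exonic length of protein-coding alpha genes, 75.1 to 100% in beta and 35.6 to 72.4% in gamma genes. Levels of different members are therefore compared below as CPM per kilobase of unshared exon. The variable exons resemble each other, and a median of 9.61% of the 50-base stretches in a member's first exons also occurred in another member, up to 58.5% among members that gave reads. Among the 16 members below 5%, 7 were tested, of which 4 rose, 1 fell and 2 did not pass the threshold. Over all genes tested, 25.5% rose and 25.9% fell. Of the 4, PCDHGA4, PCDHGB3 and PCDHGA11 reached the read minimum in all knockout but not in all wild-type libraries. Because the libraries are from bulk RNA, more cells using a member and more transcript per cell cannot be told apart.

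Summed over its genes, each cluster was higher in the knockout, by ratios of 1.87 to 2.22. The 16 alpha genes together had 368, 327 and 374 reads in the wild-type libraries and 701, 770 and 745 in the knockout libraries, that is 37.6 ± 2.04 and 74.3 ± 3.51 CPM (SD, n = 3 each), a ratio of 1.98. The 19 beta genes had 683, 578 and 649 reads against 1535, 1391 and 1514, or 67.1 ± 2.06 and 149 ± 7.65 CPM, a ratio of 2.22. The 24 gamma genes had 482, 420 and 377 reads against 832, 839 and 834, or 44.9 ± 4.07 and 84.0 ± 1.87 CPM, a ratio of 1.87. In none of the 3 clusters did the wild-type and knockout libraries overlap. No p-value is given for these sums, since the genes were chosen with results of these data known.

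**Figure D2:**
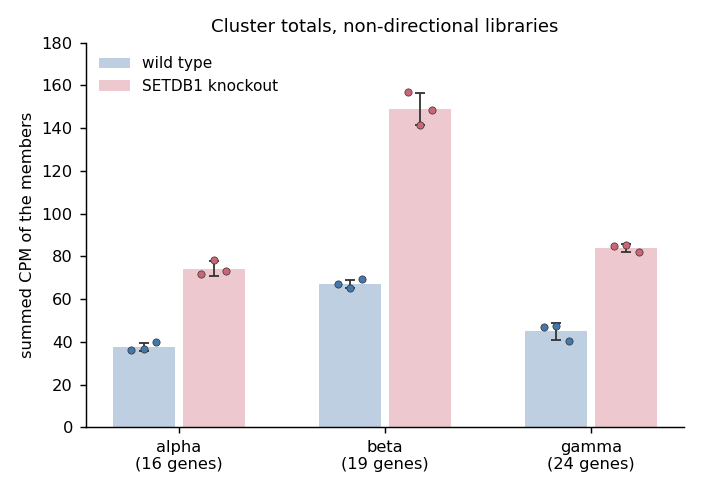
Summed level of the alpha, beta and gamma genes in CPM in the non-directional libraries; bars are means, error bars are SD and points are the 3 libraries of each group. Each knockout bar stands at 1.87 to 2.22 times its wild-type bar with no overlap of the points.

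In the alpha cluster 6 genes rose, PCDHAC2 fell, PCDHAC1 did not pass the threshold and 8 were not tested. Over all genes tested, 25.5% rose and 25.9% fell. Of the 6 alpha genes that rose, 2 reached the read minimum in all knockout but not in all wild-type libraries. The most abundant per kilobase in wild-type cells were PCDHA3, PCDHA1 and PCDHA2, which encode adhesion receptors that differ in their extracellular domains. PCDHA1 (ENSG00000204970) had 66, 52 and 47 reads in wild-type and 193, 196 and 201 in knockout libraries. Its knockout values stood far above the wild-type values, and it rose by a log2FC of 1.77 (SE 0.12, edgeR adjusted p = 2.54e-23). PCDHA3 had 172, 158 and 190 reads against 218, 254 and 242, a smaller rise of 0.39 (SE 0.087, edgeR adjusted p = 0.000103) without overlap of the groups. PCDHA2 had 29, 22 and 30 reads against 45, 43 and 52, a rise of 0.72 (SE 0.20, adjusted p = 0.00144). The order of the leading pair thus turned. PCDHA1 went from 2.48 ± 0.31 to 8.49 ± 0.052 CPM per kilobase and PCDHA3 from 5.09 ± 0.49 to 6.65 ± 0.50 CPM per kilobase (SD, n = 3 each).

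PCDHA10 rose from 48, 52 and 58 reads to 136, 153 and 134 (log2FC 1.35, SE 0.13, edgeR adjusted p = 3.85e-15). Fewer reads lay behind PCDHA7, with 7, 5 and 4 reads in wild-type and 21, 25 and 15 in knockout libraries (1.84, SE 0.36, adjusted p = 1.20e-05), and behind PCDHA11, with 5, 7 and 6 against 21, 13 and 18 (1.44, SE 0.37, adjusted p = 0.000541). Both were below the read minimum in every wild-type library and reached it through the knockout libraries. For them that filter fixes the direction. Of the 8 alpha genes without a test, 5 had every knockout library above every wild-type library, beside 5.05% of the 15171 untested genes with a read. PCDHA12, for instance, had 1, 2 and 0 reads in wild-type and 11, 13 and 9 in knockout libraries. PCDHA4 had 3, 2 and 3 against 9, 15 and 15, while PCDHA13 had 0 reads in 5 of the 6 libraries.

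The C-type genes did not follow one direction. PCDHAC2 (ENSG00000243232, chr5:140966235-141012344), the last variable exon of the alpha cluster, had 17, 13 and 13 reads in wild-type and 3, 4 and 6 in knockout libraries. It was the only member that fell, from 1.51 ± 0.14 to 0.434 ± 0.14 CPM (SD, n = 3 each), a log2FC of -1.76 (SE 0.41, edgeR adjusted p = 0.000161). Its promoter, with 15 CG dinucleotides, held neither TGNCGCT nor CGNCGCT on the gene's strand. PCDHAC1, the exon before it, had 16, 10 and 16 reads against 19, 24 and 24, and its log2FC of 0.60 (SE 0.28, edgeR adjusted p = 0.0629) did not pass the threshold although the groups did not overlap. Its promoter also held neither form. PCDHGC3, the C-type gene of the gamma cluster nearest to the other gamma genes, was the most abundant member per kilobase in wild-type cells, with 238, 229 and 199 reads. It had 311, 316 and 300 reads in the knockout, a rise of 0.41 (SE 0.077, edgeR adjusted p = 5.24e-06). PCDHGC4 and PCDHGC5 never exceeded 3 reads and 1 read, so no difference was detectable at this depth.

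In the beta cluster 12 genes rose, 0 fell, PCDHB10 and PCDHB14 did not pass the threshold and 5 were not tested. Over all genes tested, 25.5% rose and 25.9% fell. Of the 12 beta genes that rose, 5 reached the read minimum in all knockout but not in all wild-type libraries. PCDHB5 (ENSG00000113209) became the most abundant of all members per kilobase in the knockout, with 115, 88 and 105 reads in wild-type and 348, 347 and 344 in knockout libraries. That rise was 1.69 on the log2 scale (SE 0.089, edgeR adjusted p = 1.89e-29), from 3.71 ± 0.26 to 12 ± 0.33 CPM per kilobase (SD, n = 3 each). PCDHB3 had 92, 82 and 74 reads against 274, 228 and 263 (1.56, SE 0.10, adjusted p = 1.41e-23). PCDHB2 had 121, 112 and 121 reads against 247, 192 and 239 (0.87, SE 0.098, adjusted p = 2.17e-12). These 3 abundant genes were well above their wild-type range in each knockout library.

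The largest fitted beta increases were those of genes that reached the read minimum in all knockout but not in all wild-type libraries. That filter favours genes with low wild-type reads. For PCDHB15, below the minimum in every wild-type library, it fixes the direction. PCDHB15, the last gene of the cluster, had 7, 9 and 2 reads in wild-type and 44, 50 and 61 in knockout libraries (3.01, SE 0.29, edgeR adjusted p = 2.14e-15). PCDHB12 had 9, 14 and 15 reads against 72, 82 and 84 (2.57, SE 0.21, adjusted p = 1.99e-18). PCDHB4 had 3, 8 and 10 reads against 39, 23 and 20 (1.88, SE 0.33, adjusted p = 1.49e-06). PCDHB16 had 23, 8 and 21 reads against 66, 65 and 60 (1.80, SE 0.21, adjusted p = 1.02e-11), with wild-type replicate 2 well below the other two. Smaller increases were found in other genes of the same cluster. PCDHB13 had 93, 75 and 93 reads against 115, 108 and 116 (0.31, SE 0.12, adjusted p = 0.0249), and PCDHB6 had 58, 49 and 46 against 80, 60 and 105 (0.61, SE 0.16, adjusted p = 0.000630). The pseudogene PCDHB18P had 45, 41 and 45 reads against 70, 71 and 59 (0.54, SE 0.16, adjusted p = 0.00336).

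Beta genes with the same element differed in the size of their change. PCDHB12 and PCDHB13 are neighbours with GTGGCGCT in both promoters, as the windows above show, and their levels went from 0.349 to 2.06 and from 1.81 to 2.25 CPM per kilobase. PCDHB10 and PCDHB14 hold it as well. PCDHB10 had 11, 15 and 27 reads in wild-type and 12, 13 and 15 in knockout libraries, overlapping ranges with a log2FC of -0.47 (SE 0.31, edgeR adjusted p = 0.207). Without wild-type replicate 1 it was -0.78 with an edgeR adjusted p of 0.0425, within a range of 0.0425 to 0.964 over all alternatives. PCDHB14 had 18, 13 and 14 reads against 19, 17 and 17 (0.17, SE 0.29, adjusted p = 0.661). Over all members with a promoter entry, TGNCGCT or CGNCGCT was present in 25 of the 26 that rose, 3 of the 4 that did not pass the threshold, 13 of the 16 not tested and 0 of the 1 that fell. Because nearly all members hold one of these forms, the count is a description only.

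A pair of beta calls were close to the threshold. PCDHB9 had 12, 10 and 8 reads against 21, 15 and 17 (0.75, SE 0.32, edgeR adjusted p = 0.0436), and its adjusted p lay between 0.0424 and 0.195 over the alternatives. For PCDHB13 that range was 0.0192 to 0.129. Beta genes that share no exon base with a gene on the other strand numbered 8, of which 7 were tested and 6 rose, beside 25.5% of all genes tested, with a median log2FC of 0.75. Of the 6, PCDHB4, PCDHB9 and PCDHB12 reached the read minimum in all knockout but not in all wild-type libraries. PCDHB18P is also among the 6. In the directional libraries, whose counts are mostly of the opposite strand as set out below, it had 6, 4 and 1 reads against 22, 28 and 21. A lack of annotated exons on the other strand thus does not keep reads of that strand out of these counts. PCDHB1, which stands apart at the start of the cluster and whose promoter lacks both forms of the element, had 1 read in all.

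In the gamma cluster 12 genes rose, 0 fell, PCDHGA9 did not pass the threshold and 11 were not tested. Over all genes tested, 25.5% rose and 25.9% fell. Of the 12 gamma genes that rose, 9 reached the read minimum in all knockout but not in all wild-type libraries. Besides PCDHGC3, the most abundant per kilobase in wild-type cells were PCDHGA10 and PCDHGB1. PCDHGA10 had 120, 101 and 85 reads in wild-type and 191, 175 and 196 in knockout libraries (0.81, SE 0.10, edgeR adjusted p = 2.42e-10). PCDHGB1 had 14, 14 and 11 reads against 51, 68 and 43 (1.98, SE 0.24, adjusted p = 1.72e-11). These were, with PCDHGC3, the 3 gamma genes that reached the read minimum in all wild-type libraries, and each rose.

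The largest fitted gamma increases were those of PCDHGA12, PCDHGA4 and PCDHGA11, which reached the minimum in all knockout but not in all wild-type libraries. For PCDHGA12 and PCDHGA4, below it in every wild-type library, that filter fixes the direction. PCDHGA12 (ENSG00000253159), the last A-type gene, had 3, 4 and 0 reads in wild-type and 16, 26 and 27 in knockout libraries, the steepest fitted rise of all members at 3.17 (SE 0.44, edgeR adjusted p = 2.69e-09). PCDHGA4 had 3, 2 and 4 reads against 26, 27 and 21 (2.92, SE 0.39, adjusted p = 8.44e-10). PCDHGA11 had 16, 7 and 13 reads against 49, 48 and 59 (2.04, SE 0.24, adjusted p = 7.58e-12). The wild-type levels of PCDHGA12 and PCDHGA4, 0.248 ± 0.23 and 0.315 ± 0.10 CPM (SD, n = 3 each), were about the size of 3 reads, so the size of these rises is poorly known. PCDHGA9 had 12, 2 and 11 reads against 8, 6 and 11 (-0.067, SE 0.42, adjusted p = 0.912), and its wild-type range enclosed the knockout range.

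By subtype, 5 of the 9 B-type gamma genes were tested and each rose, beside 25.5% of all genes tested, with log2 fold changes from 1.11 (PCDHGB2) to 1.98 (PCDHGB1). Of these, PCDHGB2, PCDHGB3, PCDHGB5 and PCDHGB7 reached the read minimum in all knockout but not in all wild-type libraries. Their entry to the test thus leaned on high knockout reads. PCDHGB3 and PCDHGB7, below the minimum in every wild-type library, had to be higher in the knockout. Of the 12 A-type genes 7 were tested and 6 rose. Of the 6, only PCDHGA10 reached the minimum in all wild-type libraries. PCDHGA1, PCDHGA4, PCDHGA6, PCDHGA11 and PCDHGA12 reached it in all knockout but not in all wild-type libraries. PCDHGA6, like PCDHGA4 and PCDHGA12, was below it in every wild-type library and had to be higher in the knockout. The increases of PCDHGB3, PCDHGB5, PCDHGB7, PCDHGA1 and PCDHGA6 lay between 1.07 and 1.85, each from a mean below 1.5 CPM in the wild type. PCDHGA1 had 25, 9 and 9 reads in wild-type and 30, 29 and 36 in knockout libraries, so that wild-type replicate 1 stood near the knockout range. Of the 11 gamma genes without a test, 8 had separate groups in that direction, beside the same 5.05%. PCDHGB6 had 2, 2 and 3 reads against 13, 16 and 9.

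**Figure D3:**
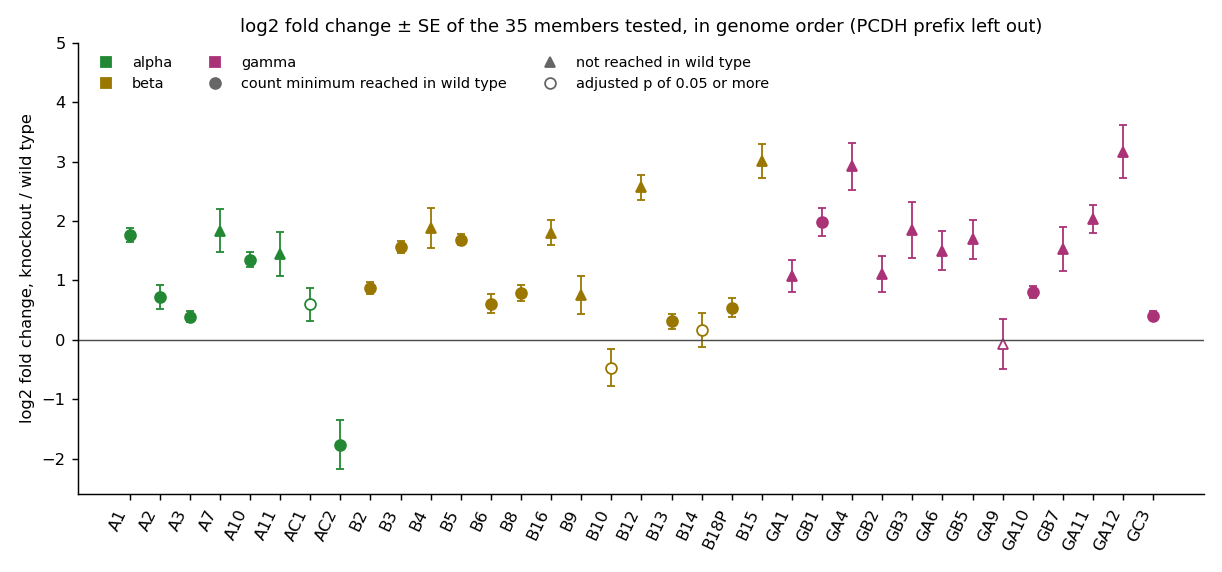
Log2 fold change, knockout over wild type, with SE for the 35 members tested, in genome order; colours mark the clusters, circles the members that reached the read minimum in all wild-type libraries and triangles the others, and open symbols did not pass an adjusted p of 0.05. The values run from -1.76 (PCDHAC2) to 3.17 (PCDHGA12), and the 4 open symbols lie between -0.47 and 0.60.

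The make-up of the clusters also differed between genotypes. Shares of the summed CPM per kilobase were taken within each library, and their evenness was expressed as the inverse Simpson index, the number of equally abundant genes that would give the same evenness. In the gamma cluster it was 3.17, 2.75 and 2.95 in wild-type and 5.15, 5.20 and 5.32 in knockout libraries. PCDHGC3 held 54.6% ± 2.46 of the gamma signal in wild type and 37.6% ± 0.54 in knockout libraries (SD, n = 3 each), whereas PCDHGB1 went from 5.09% ± 0.40 to 10.5% ± 2.28. Gamma genes with more than 9 reads over the 3 libraries numbered 11 in wild type and 20 in knockout.

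The alpha index moved less, from 3.51, 3.35 and 3.17 to 3.84, 3.85 and 3.81. PCDHA3 held 47.6% ± 3.20 of the alpha signal in wild type and 30.5% ± 1.29 in knockout libraries, and PCDHA1 held 23.3% ± 3.53 and 39.0% ± 1.04 (SD, n = 3 each). Alpha genes with more than 9 reads over the 3 libraries numbered 8 and 14. The beta index went the other way, from 8.07, 8.14 and 8.42 to 6.96, 6.83 and 6.98, as PCDHB5 went from 18.4% ± 0.92 to 26.3% ± 1.41 and PCDHB3 from 14.5% ± 1.55 to 18.7% ± 0.83 of the beta signal. In each cluster the index of every knockout library lay outside the wild-type range. No test was applied, and since these shares count low levels coarsely they rest mainly on the most abundant members.

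**Figure D4:**
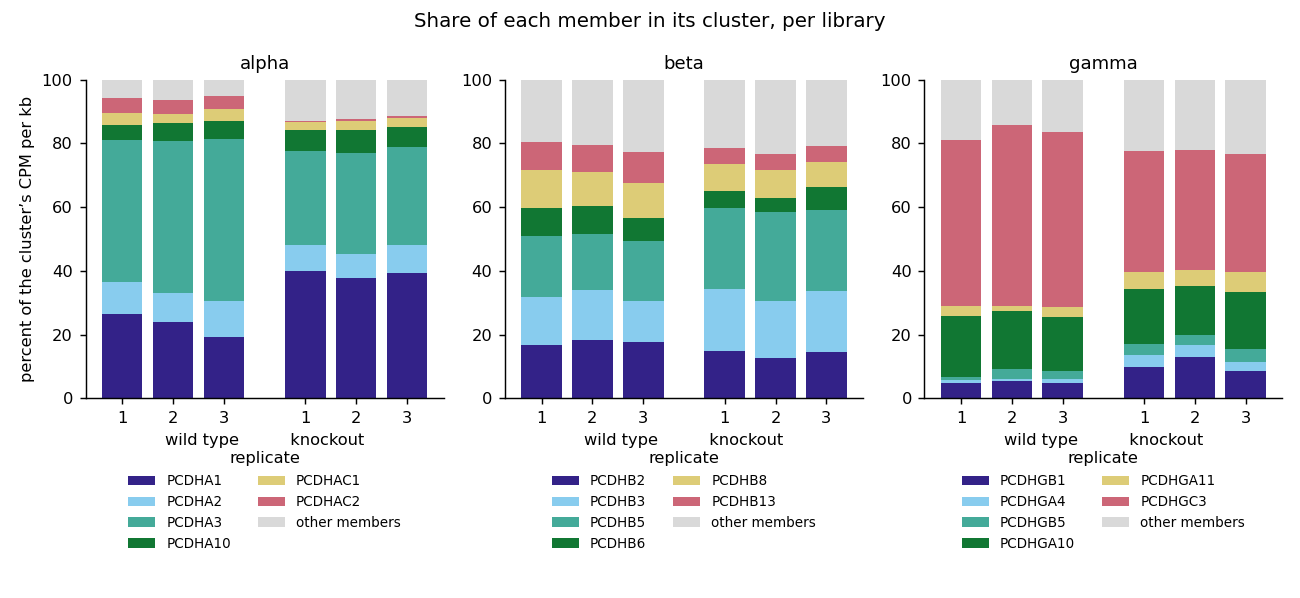
Share of single members in the summed CPM per kilobase of their cluster, in percent, one stacked bar per non-directional library; the 6 members with the highest share in either group are coloured and the others are grey. PCDHGC3 takes 54.6% of the gamma signal on average in wild type and 37.6% in knockout libraries, and PCDHA1 overtakes PCDHA3 in the alpha panel.

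The directional libraries bear on the strand of these transcripts, with a limit that has to be read first. They held 532021 to 676691 gene counts, 5.23 to 5.30% of the listed reads, and 94.6% of reads lay in no gene in both genotypes. Over 4959 genes that share no exon and had at least 300 wild-type reads in the non-directional kit, the directional count per listed read was a median of 0.542% of the non-directional one. Directional counts of a gene thus hold almost none of its sense reads, and mostly reads of the opposite strand, plus a small remainder of its own. For a minus-strand gene that lies over protocadherin exons, the opposite strand is that of the protocadherins. For the protocadherins, which had few reads listed, the remainder of sense reads can be a large share. At the median share above, 5.65 of the alpha, 10.1 of the beta and 6.76 of the gamma reads listed over the 3 wild-type libraries would be such sense reads, and 10.8, 21.6 and 12.2 over the 3 knockout libraries.

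Of such minus-strand genes, 13 share exon bases with members. Together they had 217, 233 and 183 reads in wild-type and 464, 417 and 396 in knockout libraries, a ratio of 2.10 in CPM without overlap. Of these, 6 were tested, 5 rose and AC244517.4 did not pass the threshold, beside 7.67% of the 4745 genes tested in this kit that rose. AC244517.11, which shares exon bases with PCDHB5, PCDHB15 and PCDHB19P, had 51, 40 and 35 reads against 142, 127 and 112 (1.65, SE 0.14, edgeR adjusted p = 2.26e-17). AC244517.2, which overlaps PCDHB3, PCDHB6 and PCDHB7, had 35, 43 and 19 reads against 88, 85 and 69 (1.37, SE 0.17, adjusted p = 1.63e-10). AC005618.3 over PCDHGB1 had 1, 6 and 3 reads against 14, 14 and 21 (2.31, SE 0.45, adjusted p = 3.78e-05). It was below the minimum of about 10 reads in every wild-type library, so the filter fixes its direction. AC005609.5 over PCDHA1, PCDHA3 and PCDHA5 had 30, 40 and 38 reads against 62, 62 and 51 (0.75, SE 0.17, adjusted p = 0.000696). The antisense genes also have exon bases outside the members, so not every one of these reads lies over a member. They come from other libraries than the non-directional counts and were higher in the knockout at parts of all 3 clusters. At the gamma cluster AC005618.3 was the only such gene tested.

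Few reads were listed for the members themselves. The 19 beta genes had 13, 14 and 4 reads in wild-type and 68, 81 and 74 in knockout libraries, a ratio of 7.77 in CPM without overlap. In the knockout most of them lay over PCDHB18P, with 6, 4 and 1 reads against 22, 28 and 21, over PCDHB3, with 2, 1 and 1 against 15, 8 and 18, and over PCDHB5, with 1, 2 and 2 against 7, 12 and 12. PCDHB18P was the only member with enough reads for a test in this kit and rose (2.71, SE 0.39, edgeR adjusted p = 2.28e-08). It was below the minimum of about 10 reads in every wild-type library and entered the test through the knockout libraries. That filter fixes the direction. Non-directional counts do not separate the strands, so the rises of PCDHB18P and other members there can include minus-strand reads. How much of them is of the minus strand was not tested. The 16 alpha genes had 26, 28 and 17 against 42, 58 and 41, also without overlap, while the 24 gamma genes had 2, 5 and 2 against 6, 5 and 2, which overlap. The gamma totals of 9 and 13 were close to the sense reads left at the median share, 6.76 and 12.2, so the minus strand of the gamma genes cannot be read from them. The alpha totals of 71 and 141 and the knockout beta total of 223 lay above the sense reads left even at the ninth decile of that share over genes, 14.3, 27.2 and 54.5. The wild-type beta total of 31 stood near its value there, 25.5.

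**Figure D5:**
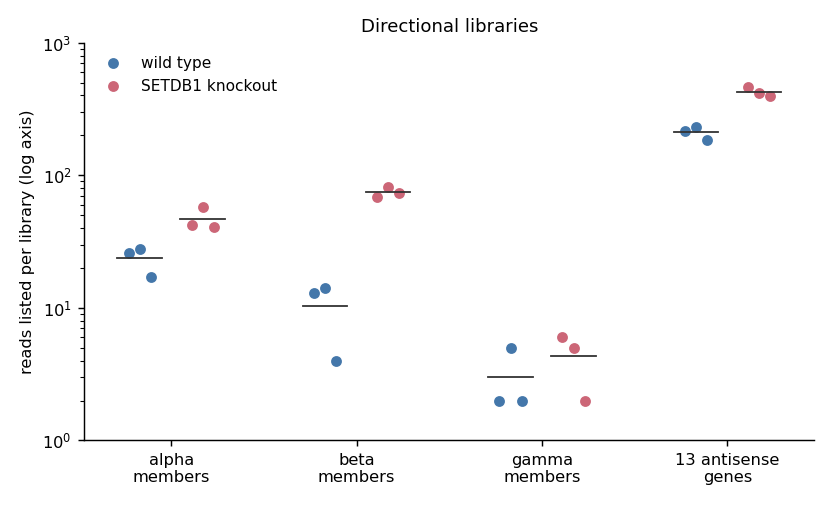
Reads per directional library, on a log axis, listed for the alpha, beta and gamma members and for the 13 minus-strand genes that share exon bases with them; points are libraries and lines are means. Knockout points lie above the wild-type points in the alpha, beta and antisense groups and overlap with them in the gamma group.

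Genes before the clusters were called in both directions, and the calls after them were all lower. Over all genes tested, 25.5% rose and 25.9% fell. Within 1000000 bases before the first alpha gene, 44 genes were listed and 14 tested, of which 4 rose, 3 fell and 7 did not pass the threshold (median log2 fold change 0.020). Within the same distance after the last gamma gene, 24 were listed and 10 tested, of which 0 rose, 5 fell and 5 did not pass it (median -0.12). PCDH1, a protocadherin outside the clusters, was one of those that fell, from 12.2 ± 0.74 to 5.76 ± 1.01 CPM (SD, n = 3 each; -1.08, SE 0.13, edgeR adjusted p = 5.57e-11). Of 25 other genes listed between the first alpha and the last gamma gene, 13 of them the minus-strand genes above, 2 were tested and both rose. They were AC005618.1 and TAF7, a subunit of the general transcription factor TFIID, by 0.30 (SE 0.037, adjusted p = 1.08e-10).

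Most of the tested protocadherins and giant cadherins outside the clusters fell. Of 24 such genes 14 were tested, 10 fell, 2 rose and 2 did not pass the threshold, beside 25.9% of all genes tested that fell, with a median log2FC of -0.91. PCDH7 had 65, 52 and 58 reads in wild-type and 7, 7 and 14 in knockout libraries (-2.70, SE 0.24, edgeR adjusted p = 1.75e-16). PCDH18 had 447, 355 and 404 reads against 245, 218 and 191 (-0.95, SE 0.075, adjusted p = 3.41e-19). The pair that rose was DCHS1 and DCHS2, cadherins of the planar polarity pathway, at 0.74 (SE 0.11, adjusted p = 2.84e-08) and 1.24 (SE 0.17, adjusted p = 2.01e-09).

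Regulators known to act at this locus were split. Of 32 listed and tested genes, 12 rose, 9 fell (SETDB1 among them) and 11 did not pass the threshold, beside 25.5% of all genes tested that rose and 25.9% that fell, a median log2FC of 0.0073. CTCF, which anchors the loops between promoters and enhancers, fell by 0.23 on the log2 scale (SE 0.040, edgeR adjusted p = 1.1e-06), from 133 to 114 CPM. CTCFL, its germline paralog that binds similar sequences, had 2, 3 and 2 reads in wild-type and 934, 975 and 1019 in knockout libraries (edgeR adjusted p = 4.44e-64). ATF7IP, the nuclear partner that stabilises SETDB1, rose by 1.62 (SE 0.044, adjusted p = 3.69e-49). SMCHD1, a chromatin protein known to act on these clusters, had 127 ± 6.99 and 127 ± 8.03 CPM (-0.0054, SE 0.042, adjusted p = 0.931). Of 18 proteases and intracellular partners that act on protocadherin proteins, 4 rose, 9 fell and 5 did not pass the threshold, beside the same 25.5% and 25.9%, with a median of -0.065. These include ADAM10, which sheds the extracellular part, at 0.11 (SE 0.039, adjusted p = 0.0116), and NCSTN, a subunit of the gamma-secretase that cuts what remains, at -0.65 (SE 0.046, adjusted p = 1.06e-21).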

How the data were processed

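RNA was sequenced from HAP1 wild-type and SETDB1 knockout cells with a non-directional and a directional kit, 3 libraries each, grouped by the sample titles. The authors deposited raw read counts per gene for each library. The submitters' processing notes name Trim Galore 0.4.4, STAR 2.6.0a, SAMtools 1.9, Picard 2.23.8, HTSeq 0.11.1 and bedtools, with build hg38, while the strand setting is not given in the sources used here. The publication given with these data describes other experiments, so none of its methods were used. The deposited L1 tables were not used, since no locus in them lies in the clusters.

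All 58735 gene IDs matched GENCODE 29. HTSeq does not assign reads over exons of several genes, so counts rest on unshared bases. Each kit was fitted alone with edgeR 4.0.16 (R 4.3.3): filterByExpr (minimum count 10, minimum total 15), TMM scaling, the quasi-likelihood F-test and Benjamini-Hochberg adjustment over all genes, with a threshold of 0.05. The approximate SE was obtained from the size of the log2 fold change over sqrt(F). Levels are CPM, TMM-scaled. Reads in no gene, in several genes or not uniquely aligned (19.6 to 19.7% of reads listed with the non-directional kit, 94.7 to 94.8% with the directional one) stayed out of library sizes. Non-directional libraries held 8921959 to 10199215 gene counts and directional ones 532021 to 676691. Reads are not independent molecules without molecular identifiers, so floors of 3 reads cover counting error only.

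Replicate numbers did not pair the libraries: deviations of same-numbered libraries from their group means correlated at -0.010 on average, and at -0.0018 in the directional kit. Because no pair of the non-directional knockout libraries differed beyond sampling noise, they were kept as 3 samples as titled, and a fit with them summed as 1 was added after the data were seen. The fit was tested on simulated counts. Alternatives covered the scaling (DESeq2 and upper-quartile factors), the DESeq2 1.42.0 Wald test, the filter, a fit over all 12 libraries, the replicate block and leaving out each library. Named genes were the tested members, with reads for the 6 largest and 6 smallest called changes, the 3 most abundant members per cluster and the C-type genes, others being added for context. The members, gene lists and tests were chosen with earlier results of these data known, and longer promoter motifs after reading the promoters.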

Additional observations from a re-analysis of the deposited data

How the results depend on the processing

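Over 444 pairs of a tested member and an alternative, 427 kept the direction and the side of the threshold, 16 no longer passed it, 1 newly passed it and 0 reversed. Of the 35 members, 32 kept both under every alternative that could be fitted. The 3 that did not were PCDHB9 (no call under the DESeq2 Wald test, with the knockout libraries summed as 1, with no low-count filter, under the replicate block and without 5 of the 6 libraries), PCDHB13 and PCDHB10. The number of members called was 31 and ranged from 30 to 33 when 1 library was left out. With no low-count filter 12 alpha genes were called in place of 7, which follows from testing 15 in place of 8. Also asking for a change of 2-fold or more left 6 of 12 beta genes and 1074 of the 7089 genes called in all, 498 higher and 576 lower. In 1 fit over all 12 libraries 6 gamma genes were called in place of 12, all 6 that this fit tested. Restricting the alpha sum to members with 50% or more of their exonic bases unshared raised its log2 ratio from 0.98 to 1.22. In the directional kit 1 member was called, 1 to 3 when a library was left out and 6 with no low-count filter, where 39 were tested. Depth limits the 24 untested members and most directional member counts. With the replicate block, 30 members were called in place of 31, the difference being PCDHB9 (adjusted p = 0.0508), and no other call on a member changed; the numbers are shared by name only, and the log2 ratios of the cluster sums were 0.98, 1.15 and 0.91 by pairs.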
